A study of Mus musculus with 15 samples.

Results

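The genes described here are 31 genes of fatty acid uptake and oxidation, the route by which muscle takes up, activates and burns fat. They were chosen by name, and each was read from a probe set that the platform annotation gives to that gene alone. Where a gene had several such probe sets, the one with the highest mean over all 15 arrays was used. This gave values for 29 of the 31 genes, out of 19938 genes with a probe set on the array. Acsl1, the main long-chain acyl-CoA synthetase of muscle, has no probe set listed under its name, and the probe set of Cpt1b, the muscle form of the outer carnitine palmitoyltransferase, is shared with a second gene symbol, so neither was measured here. All 29 passed the filter on dim genes, which kept 12056 genes.

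RNA came from the gastrocnemius (a mainly fast-fibred muscle of the calf) of C57BL/6 males aged 12 months. Each array carried RNA of 1 mouse. There were 3 wildtype mice on the control diet, 4 wildtype mice on calorie restriction (CR), 4 Sirt3 knockout mice on the control diet and 4 Sirt3 knockout mice on CR. Sirt3 encodes a deacetylase of the mitochondrial matrix, and several enzymes of fat oxidation are among its known substrates. The labels do not say how the allele was made, nor how deep or long the restriction was.

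As background, long-chain fatty acids are released from lipoproteins outside the fibre, cross the membrane with the help of carriers, are bound in the cytosol and are joined to coenzyme A. They enter mitochondria as carnitine esters, and malonyl-CoA inhibits that entry. Inside, beta-oxidation shortens the chain in repeated cycles of dehydrogenation, hydration, a second dehydrogenation and thiolysis, and its electrons pass through the electron transfer flavoprotein to the respiratory chain. In muscle these genes are known targets of the PPAR and ERR nuclear receptors and their coactivator PGC-1alpha.

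The DNA just before the start of Cpt2 and of Hadhb is shown first. These were the members with the lowest p for CR averaged over the genotypes, and the members that passed the threshold in some alternative fits. Both windows hold 250 bases before the start of the gene, read 5′ to 3′ on the strand of the gene, from RefSeq on GRCm38.p6. Capitals mark the GC box GGGCGG, the core of a binding sequence of SP1-type factors.
Cpt2, chr4:107923590-107923839, minus strand: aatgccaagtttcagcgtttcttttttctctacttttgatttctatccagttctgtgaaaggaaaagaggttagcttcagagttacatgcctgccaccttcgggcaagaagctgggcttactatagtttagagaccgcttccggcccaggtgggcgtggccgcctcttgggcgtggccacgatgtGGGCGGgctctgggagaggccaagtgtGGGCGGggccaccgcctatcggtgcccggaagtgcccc
Hadhb, chr5:30155003-30155252, plus strand: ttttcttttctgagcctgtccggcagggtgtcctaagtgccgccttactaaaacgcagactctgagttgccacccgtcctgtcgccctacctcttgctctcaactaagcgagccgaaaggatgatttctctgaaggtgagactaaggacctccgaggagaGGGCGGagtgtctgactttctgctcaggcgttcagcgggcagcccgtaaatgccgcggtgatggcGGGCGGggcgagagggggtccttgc
The GC boxes begin 65 and 38 bases before the start of Cpt2 and 90 and 25 bases before that of Hadhb. Hadhb lies next to Hadha on chromosome 5 in the opposite direction, with 272 bases between the starts, so the Hadhb window lies wholly between the 2 genes. They were the only members that neighbour each other. RefSeq windows were found for 24 of the 29 genes, 26 windows in all. Letters were searched on both strands. GGGCGG occurred in 16 of the 26 windows (15 genes), against 32.7% of 32851 windows of the same length. The Hadha and Hadhb windows share 228 bases and are both counted, so they are not separate windows. AGGTCA, the core letters of a nuclear receptor site, which are also part of the longer motifs below, occurred in 4 windows (Acadm, Acadvl, Cd36 and Echs1), against 14% of all windows. TCAAGGTCA, the ERR form, occurred in 0 of the 26 windows, against 0.387% of all. The direct repeat AGGTCANAGGTCA, read by PPAR with RXR, occurred in 0, against 0.033%. At such low rates, 26 windows of any genes would mostly hold no match, so these 0 counts cannot show a lack of sites. These are matches of letters in short windows, and binding was not measured.

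Some facts of the whole data set bear on every value below. Sirt3 itself was at 6.61 ± 0.11 (SD, n = 3) on wildtype control and 6.46 ± 0.07 (SD, n = 4) on wildtype CR arrays, against 5.67 ± 0.57 and 5.48 ± 0.46 (SD, n = 4 each) in the knockout groups (log2 intensity). Array medians lay between 5.40 and 5.48. Skeletal alpha-actin (Acta1), a defining muscle gene, was at 13.21 or higher on every array. Some arrays also held transcripts of other tissues. They are given here as the mean of a marker list, each gene relative to its median over all arrays. Male germ cell markers stood at 3.90 on wildtype control replicate 3 and at 3.38 on knockout control replicate 1, and at 0.68 or less on the other 13 arrays. Pancreatic acinar markers stood at 7.13 on wildtype control replicate 2, and liver markers at 2.73 on wildtype CR replicate 4, with 1.51 on wildtype control replicate 1 and 1.64 on knockout control replicate 2. The first pair are called the germ cell arrays below. The 4 arrays with another tissue, left out in some fits, are this pair, wildtype control replicate 2 and wildtype CR replicate 4. The arrays with liver markers at 1.51 and 1.64 were kept, so wildtype control replicate 1 is then the only wildtype control. In bulk tissue, fewer cells of a type and less RNA per cell cannot be told apart.

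None of the 29 genes passed an adjusted p under 0.05 (limma, Benjamini-Hochberg over 12056 genes) in any of the 7 comparisons of the design. The lowest adjusted p for CR averaged over the genotypes was that of Cpt2, the inner-membrane carnitine palmitoyltransferase, at 0.781 of its control signal. Next came Hadhb and Hadha, the subunits of the mitochondrial trifunctional protein, at 0.798 and 0.844. With all arrays, the direction of the diet difference was not shared by the whole route. Averaged over the genotypes, 18 of the 29 genes lay below the control level, where 40.5% of all genes did. Without the germ cell arrays 25 of the 29 did, where 45.4% of all genes did. Carnitine shuttle genes lay below their control level in both genotypes, also without the arrays that hold other tissue. The 2 genes of malonyl-CoA turnover lay above it with all arrays, but in wildtype mice that direction turned without those arrays. Knockout and wildtype muscle did not differ past the threshold in any member on either diet. Sirt3 itself did not pass it either (limma adjusted p = 0.599 on the control diet and 0.605 on CR). Failing the threshold between genotypes therefore does not show that a gene is unchanged.

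**Figure D1:**
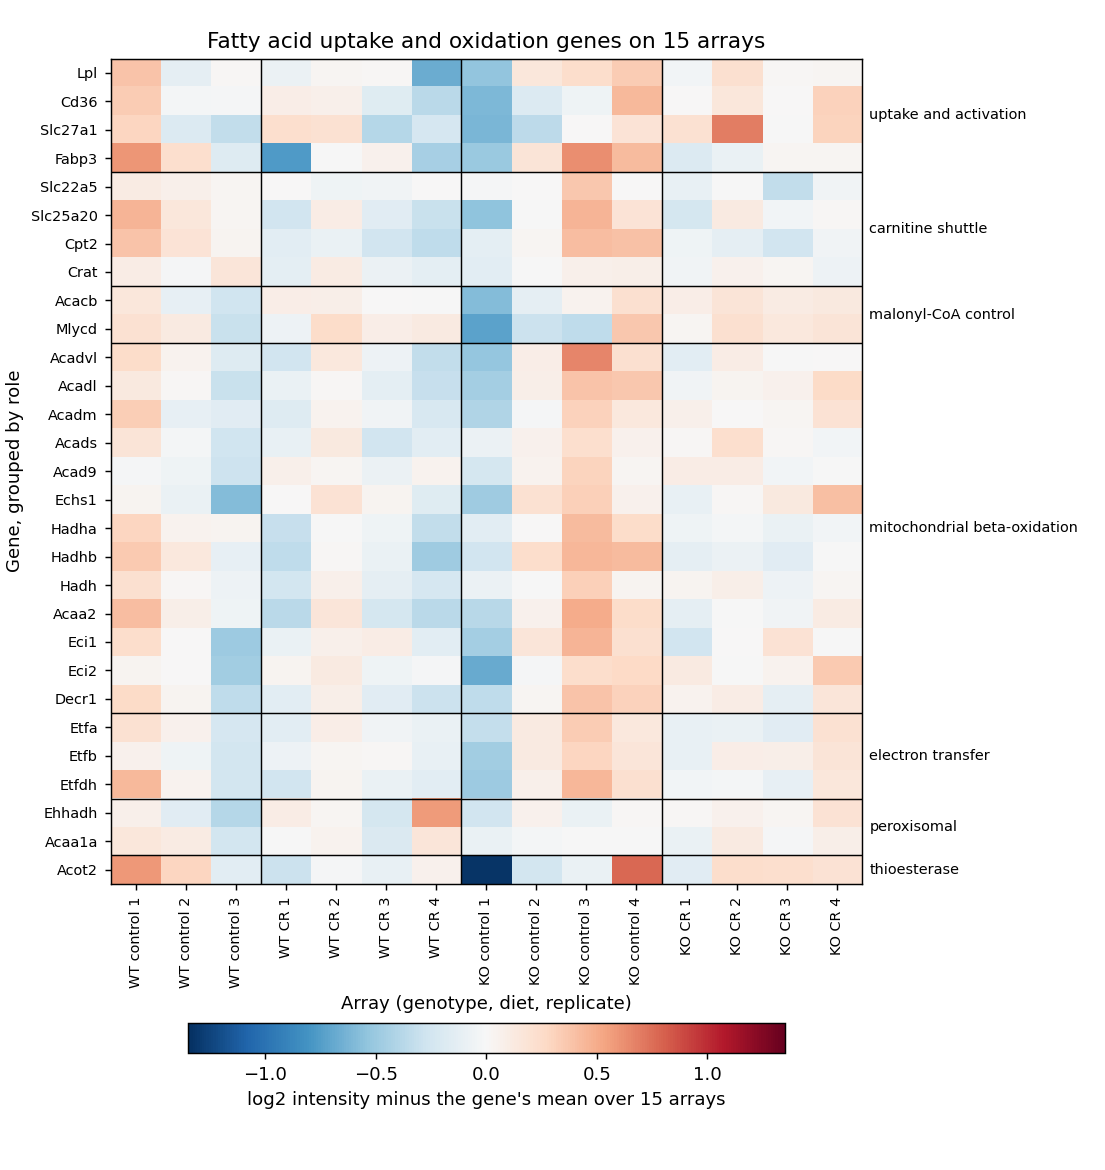
Colour gives the log2 intensity of each of the 29 measured genes (rows, grouped by role) minus its mean over the 15 arrays (columns, grouped by genotype and diet; WT is wildtype, KO is Sirt3 knockout). Knockout control replicate 1 is blue in all rows, while knockout control replicate 3 holds the highest value of 16 genes.

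Much of the spread of these genes lay between arrays of one group. Knockout control replicate 1 had the lowest value of the 15 arrays for 16 of the 29 genes and lay below the mean of its group for all 29, where 59.4% of all genes tested did. Knockout control replicate 3 had the highest value for 16 genes. Wildtype control replicate 3 lay below its group mean for 28 of the 29 genes, where 70.5% of all genes did, and held the lowest value for 6. Wildtype control replicate 1 lay above its group mean for all 29.

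The mean of the 29 genes per array, relative to each gene's own mean, was 0.03 ± 0.22 (SD, n = 3) in wildtype control and -0.08 ± 0.10 (SD, n = 4) in wildtype CR mice. It was 0.02 ± 0.31 in knockout control and 0.04 ± 0.07 in knockout CR mice (SD, n = 4 each). The 4 groups overlapped, and the control groups spread more than the CR groups. With the group means removed, the median correlation between 2 members over the 15 arrays was 0.711 (406 pairs, of which 99% lay above 0). Without the germ cell arrays it was 0.523 over 13 arrays. These correlations are a description: all genes were read from the same arrays, so they share tissue make-up and RNA quality. Both germ cell arrays were low in the members, with the muscle identity list at -0.03 and 0.03, near the median level of its genes. Their part in the member values was not tested. Medians and the main counts of members are given with and without them. Leaving out these arrays turned the direction of several single genes. Values are given for some of those genes, and the number that turned is given for several comparisons at the end.

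Among the uptake genes, Lpl encodes lipoprotein lipase, Cd36 a fatty acid translocase, Slc27a1 the transport protein FATP1 and Fabp3 the heart and muscle fatty acid binding protein. In wildtype mice Lpl was 11.02, 10.51 and 10.65 on the control arrays and 10.56, 10.66, 10.65 and 9.96 on the CR arrays. The ranges overlapped, and the lowest value was on CR replicate 4, the array with the highest liver markers. The CR difference was -0.27 (SE 0.21, limma adjusted p = 0.568). In knockout mice Lpl was 10.10, 10.78, 10.87 and 10.98 on the control diet and 10.60, 10.85, 10.64 and 10.66 on CR, a log2 difference of 0.01 (SE 0.19).

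Cd36 was 10.54, 10.18 and 10.18 in wildtype control and 10.29, 10.27, 10.03 and 9.84 in wildtype CR mice. It was 9.60, 10.01, 10.15 and 10.63 in knockout control and 10.21, 10.35, 10.21 and 10.51 in knockout CR mice. The diet groups overlapped in both genotypes, with CR differences of -0.19 (SE 0.19) and 0.22 (SE 0.18). Knockout control replicates 1 and 4 held the lowest and the highest value of all arrays. The difference between the 2 CR responses, the interaction, was 0.41 (SE 0.26, limma adjusted p = 0.892), and this was the lowest interaction p of any member. Without knockout control replicate 1 the interaction was 0.25.

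Slc27a1 was 9.30, 8.82 and 8.67 in wildtype control mice and 9.23, 9.22, 8.62 and 8.78 in wildtype CR mice. In knockout mice it was 8.39, 8.65, 9.02 and 9.19 on the control diet and 9.22, 9.70, 9.01 and 9.31 on CR. The wildtype groups covered the same range, while 3 of the 4 knockout CR arrays lay above all 4 knockout controls. Its CR difference was 0.03 (SE 0.22) in wildtype mice, and -0.10 without the germ cell arrays. In knockout mice it was 0.49 (SE 0.21, limma adjusted p = 0.359), with an interaction of 0.46 (SE 0.30, limma adjusted p = 0.908). That interaction was 0.28 without wildtype control replicate 1. Adipocytes also express Slc27a1. Over the 15 arrays, with group means removed, Slc27a1 correlated with the mean of the adipocyte markers at r = 0.805. Adipocyte markers, 10 of them tested, stood per array at -0.28 to 0.27 in knockout control and -0.12 to 0.94 in knockout CR mice. In wildtype mice the list ranged from -0.49 to -0.04 on the control diet and from -0.48 to 0.82 on CR. The part of fat tissue in the Slc27a1 difference was not tested.

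Fabp3 was 11.18, 10.81 and 10.41 on wildtype control arrays and 9.82, 10.58, 10.64 and 10.14 on wildtype CR arrays. It was 10.09, 10.76, 11.21 and 11.01 in knockout control and 10.40, 10.49, 10.61 and 10.61 in knockout CR mice. The groups overlapped in both genotypes, and the knockout CR values were close together inside the wide knockout control range. With CR it differed by -0.51 in wildtype mice (SE 0.25, limma adjusted p = 0.403), by -0.24 in knockout mice (SE 0.23, limma adjusted p = 0.705) and by -0.37 on average over genotypes (SE 0.17, limma adjusted p = 0.246). The wildtype value moved from -0.70 without control replicate 3 to -0.32 without control replicate 1. A second Fabp3 probe set gave -0.49, -0.21 and -0.35. Whether each probe set lies at the Fabp3 locus is not given, and both may read the same transcript.

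Within the carnitine shuttle, Slc22a5 is the carnitine importer of the plasma membrane, Slc25a20 exchanges acylcarnitine for carnitine across the inner membrane, Cpt2 turns acylcarnitine back into acyl-CoA in the matrix, and Crat moves short acyl groups to and from carnitine. All 4 measured genes lay below the control level with CR in wildtype mice (median log2 difference -0.25) and in knockout mice (median -0.14). The median over all genes tested was 0.04 and 0.01 in the same comparisons.

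Cpt2 was 8.82, 8.61 and 8.47 on wildtype control arrays and 8.29, 8.34, 8.17 and 8.09 on wildtype CR arrays. Every wildtype CR value lay below every wildtype control value. In knockout mice Cpt2 was 8.29, 8.46, 8.85 and 8.82 on the control diet and 8.37, 8.31, 8.17 and 8.38 on CR. Here the groups overlapped through control replicate 1, a germ cell array, and the other 3 control arrays lay above all 4 CR arrays. Cpt2 thus differed with CR by -0.41 in wildtype mice, 0.750 of the control signal (SE 0.13, limma adjusted p = 0.201), and by -0.30 in knockout mice (SE 0.12, limma adjusted p = 0.344). Averaged over the genotypes it was -0.36 (SE 0.09, limma adjusted p = 0.0668).

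That average passed the threshold without knockout control replicate 1 (-0.41, limma adjusted p = 0.0440, with 0.514% of all genes called). It also passed without both germ cell arrays (-0.45, limma adjusted p = 0.0420, 0.373% called), with array weights (-0.38, limma adjusted p = 0.0365, 1.54% called) and with the stricter filter on dim genes (-0.36, limma adjusted p = 0.0477, 2.42% of 7816 genes called). Leaving out these arrays was decided with earlier results of these data known. Without the 4 arrays that carry another tissue it was -0.48 (limma adjusted p = 0.0974).

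Slc22a5 was 6.39, 6.35 and 6.31 in wildtype control and 6.29, 6.22, 6.23 and 6.29 in wildtype CR mice, without overlap but by a small step of -0.09 (SE 0.10). In knockout mice it was 6.26, 6.29, 6.64 and 6.29 on the control diet and 6.17, 6.27, 5.95 and 6.23 on CR, a difference of -0.21 (SE 0.09, limma adjusted p = 0.359). The knockout groups overlapped, with 1 high control and 1 low CR array, and without knockout control replicate 3 the difference was -0.12. Slc25a20 was at 8.21 ± 0.22 (SD, n = 3) in wildtype control and 7.85 ± 0.18 (SD, n = 4) in wildtype CR mice, and at 8.02 ± 0.42 and 7.97 ± 0.15 (SD, n = 4 each) in knockout mice. Its CR difference was -0.37 (SE 0.19) in wildtype and -0.06 (SE 0.17) in knockout mice. Crat varied least of the 29 genes, with all values between 10.82 and 11.12 and CR differences of -0.14 (SE 0.08) and -0.01 (SE 0.07).

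**Figure D2:**
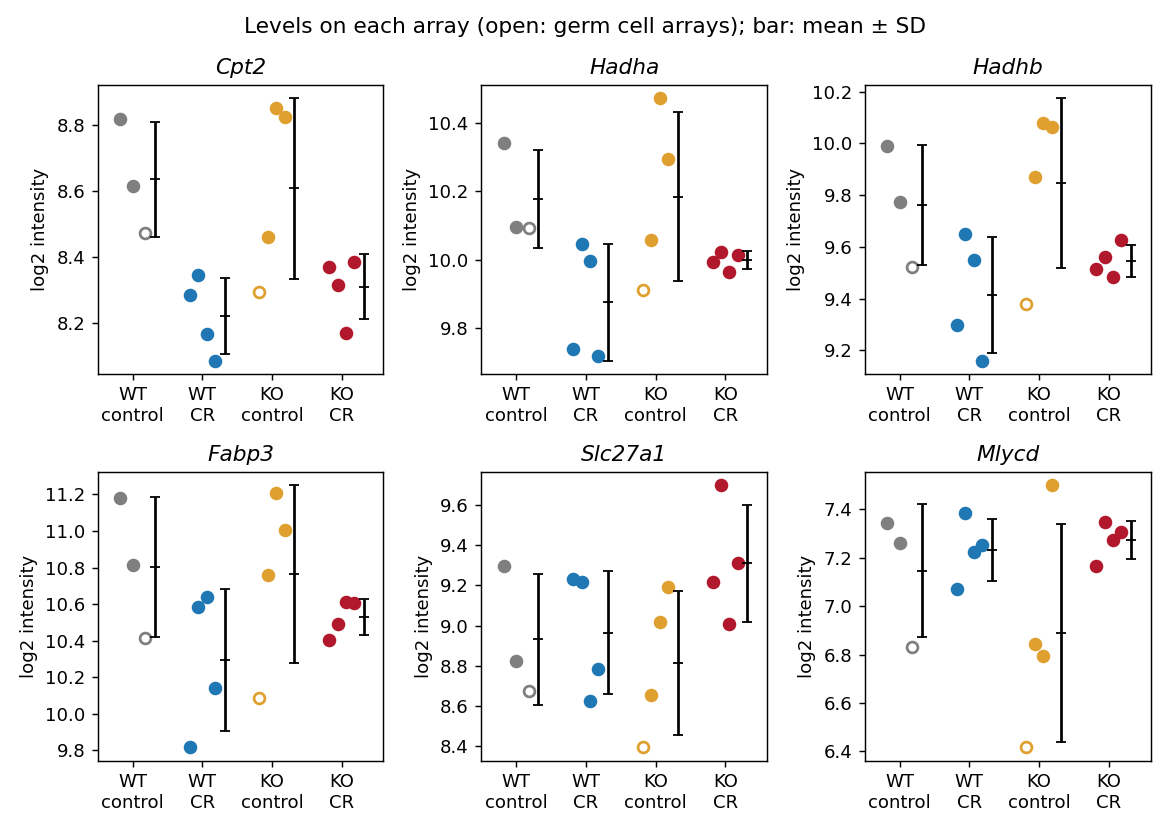
Log2 intensity (y axis) of 6 genes in the 4 groups (x axis; WT is wildtype, KO is Sirt3 knockout), 1 point per array, with the mean ± SD of the group beside the points and open points for the germ cell arrays. For Cpt2 the wildtype CR points lie below all wildtype control points, and for Cpt2, Hadha and Hadhb the open point is the lowest of the knockout controls.

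Acacb, the acetyl-CoA carboxylase that makes malonyl-CoA at mitochondria, and Mlycd, the decarboxylase that removes it, both lay above the control level with CR in each genotype when all arrays were used. In wildtype mice Mlycd stood at -0.07 and Acacb at 0.02 without the germ cell arrays, and at -0.12 and -0.10 without the 4 arrays that carry another tissue. In knockout mice they stayed above 0, at 0.23 and 0.08, without the germ cell array. The further arrays left out are wildtype, so the knockout values are the same in both cases. Mlycd was 7.35, 7.26 and 6.83 in wildtype control and 7.07, 7.38, 7.22 and 7.25 in wildtype CR mice. It was 6.42, 6.85, 6.80 and 7.50 in knockout control and 7.16, 7.35, 7.27 and 7.31 in knockout CR mice. Knockout control replicate 4 held the highest Mlycd value of all arrays and kept the knockout groups overlapping, with the other 3 controls below all 4 CR arrays. With CR it differed by 0.09 (SE 0.19) in wildtype mice and by 0.38 (SE 0.18, limma adjusted p = 0.412) in knockout mice. The latter was 0.59 without knockout control replicate 4 and 0.23 without replicate 1. Acacb differed with CR by 0.12 (SE 0.14) in wildtype and 0.23 (SE 0.13) in knockout mice, and the 2 CR groups were tight at 9.23 ± 0.05 and 9.31 ± 0.04 (SD, n = 4 each).

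In mitochondrial beta-oxidation, Hadha and Hadhb encode the alpha and beta subunits of the trifunctional protein, which carries out the hydration, second dehydrogenation and thiolysis of long chains. Hadha was 10.34, 10.10 and 10.09 on wildtype control arrays and 9.74, 10.05, 9.997 and 9.72 on wildtype CR arrays. All 4 CR values lay below the 3 control values, the nearest by a small margin. In knockout mice Hadha was 9.91, 10.06, 10.47 and 10.30 on the control diet and 9.99, 10.02, 9.96 and 10.01 on CR. The 4 CR values were nearly equal and lay inside the control range. Hadha differed with CR by -0.30 in wildtype mice (SE 0.12, limma adjusted p = 0.315), by -0.19 in knockout mice (SE 0.11, limma adjusted p = 0.543) and by -0.24 on average (SE 0.08, limma adjusted p = 0.143).

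Hadhb was 9.99, 9.77 and 9.52 on wildtype control arrays and 9.30, 9.65, 9.55 and 9.16 on wildtype CR arrays. It was 9.38, 9.87, 10.08 and 10.06 in knockout control and 9.51, 9.56, 9.48 and 9.63 in knockout CR mice. In each genotype the overlap came through the germ cell array, which was the lowest control. Hadhb differed with CR by -0.35 in wildtype mice (SE 0.16, limma adjusted p = 0.382), by -0.30 in knockout mice (SE 0.15, limma adjusted p = 0.449) and by -0.33 on average (SE 0.11, limma adjusted p = 0.142). A second Hadhb probe set gave -0.35, -0.29 and -0.32. The sources used do not say whether each probe set lies at the Hadhb locus, and both may read the same transcript. The average passed the threshold without the germ cell arrays (-0.46, limma adjusted p = 0.0420) and with array weights (-0.40, limma adjusted p = 0.0491), and was -0.48 (limma adjusted p = 0.0850) without the 4 arrays that carry another tissue.

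The other 11 beta-oxidation genes all had an unadjusted limma p above 0.05 for CR. Acadvl, Acadl, Acadm and Acads, the dehydrogenases for very long, long, medium and short chains, had CR differences of -0.17, -0.08, -0.12 and -0.06 in wildtype mice and -0.12, -0.02, 0.07 and -0.01 in knockout mice, each below its standard error. Acad9, a related dehydrogenase known mainly for complex I assembly, stood at 0.13 (SE 0.10) and 0.01 (SE 0.10). Acaa2, a matrix thiolase, was 10.27, 9.94 and 9.80 in wildtype control and 9.49, 10.02, 9.62 and 9.50 in wildtype CR mice. The groups overlapped through CR replicate 2, and the difference was -0.35 (SE 0.18, limma adjusted p = 0.417), against -0.12 (SE 0.17) in knockout mice. Hadh, the dehydrogenase for shorter hydroxyacyl chains, differed by -0.18 (SE 0.10) and -0.05 (SE 0.10). Echs1, the short-chain hydratase, stood above the control level at 0.23 (SE 0.19) in wildtype and 0.09 (SE 0.17) in knockout mice. Without the germ cell arrays Echs1 was at 0.05 and -0.08. The auxiliary enzymes for unsaturated chains, the isomerases Eci1 and Eci2 and the reductase Decr1, differed by 0.06, 0.16 and -0.11 in wildtype and by -0.11, 0.17 and -0.04 in knockout mice, none beyond its standard error. Directions also turned here without the germ cell arrays. Eci1 then stood at -0.14 in wildtype, and Eci2 at -0.04 and Acadm at -0.07 in knockout mice.

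Electron transfer, peroxisomal and thioesterase genes completed the set. Etfa and Etfb, the subunits of the electron transfer flavoprotein, and Etfdh, which passes its electrons to ubiquinone, had CR differences from -0.20 to 0.05 in wildtype and from -0.11 to 0.04 in knockout mice. Ehhadh, the peroxisomal bifunctional enzyme, was 6.20, 5.97 and 5.74 in wildtype control and 6.23, 6.15, 5.88 and 6.70 in wildtype CR mice. Its highest value was on the array with the highest liver markers, and liver expresses the gene. The CR difference was 0.27 (SE 0.16) in wildtype and 0.14 (SE 0.14) in knockout mice. The wildtype value was 0.16 without the germ cell arrays. With all 4 arrays that carry another tissue left out it was -0.11, but the only wildtype control then kept is replicate 1, the highest control. The part of liver signal was not tested. Acaa1a, a peroxisomal thiolase whose probes may not be told apart from its close copy Acaa1b, differed by -0.00 (SE 0.10) and 0.06 (SE 0.09).

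Acot2, a matrix acyl-CoA thioesterase with the near-identical neighbour Acot1, had the widest range of the 29 genes. It was 10.16, 9.85 and 9.42 in wildtype control and 9.27, 9.56, 9.47 and 9.62 in wildtype CR mice. It was 8.25, 9.32, 9.48 and 10.34 in knockout control and 9.42, 9.80, 9.79 and 9.76 in knockout CR mice. The knockout control mice alone held both the lowest and the highest value of all arrays. The CR difference was -0.33 (SE 0.33) in wildtype and 0.35 (SE 0.31) in knockout mice, with an interaction of 0.68 (SE 0.46, limma adjusted p = 0.914). Without knockout control replicate 1, the germ cell array, the interaction was 0.31 and the knockout CR value -0.02.

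**Figure D3:**
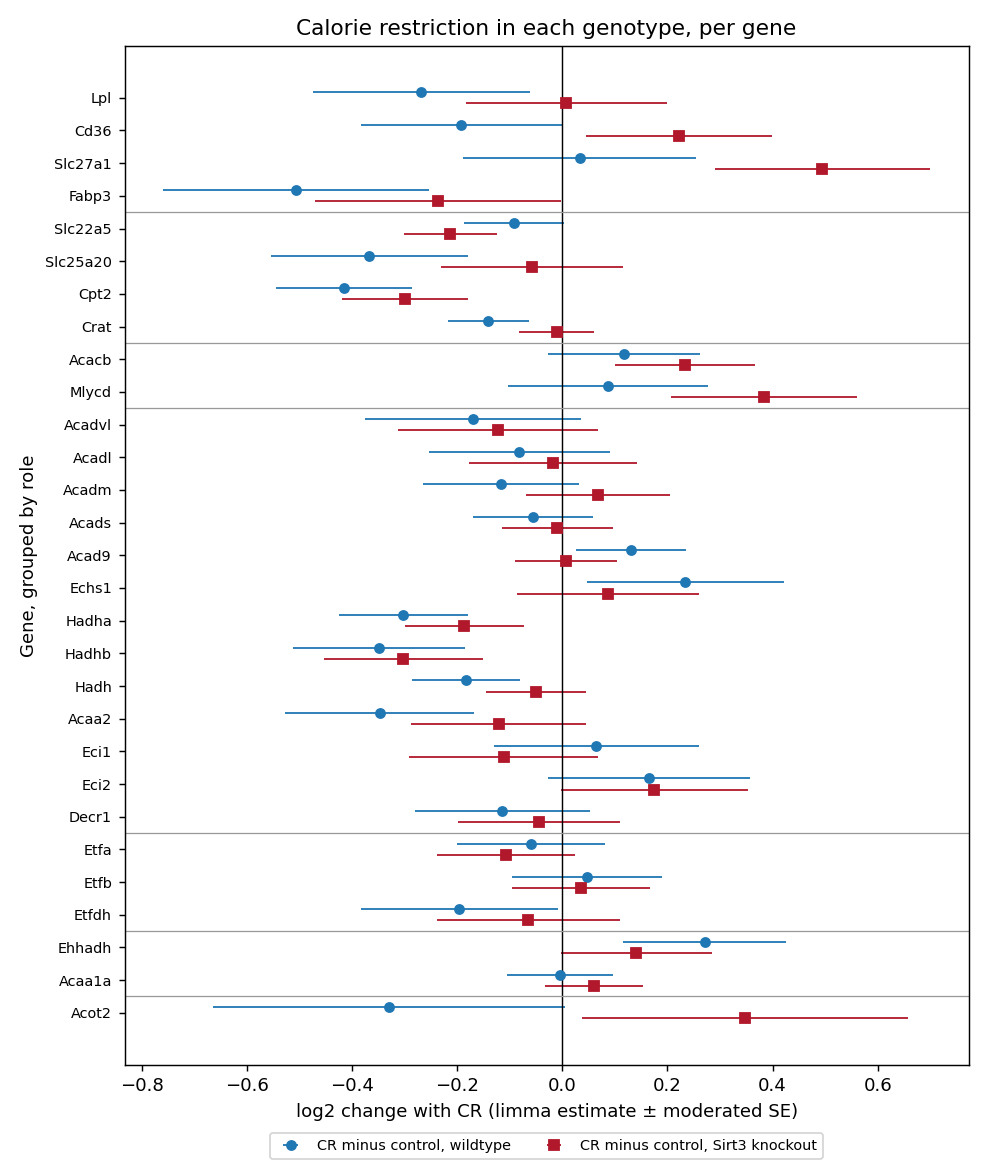
Log2 difference between CR and control diet (x axis, limma estimate ± moderated SE) for the 29 measured genes (y axis, grouped by role), with circles for wildtype and squares for Sirt3 knockout mice. Both symbols of Cpt2, Hadha and Hadhb lie left of 0, and both symbols of Acacb and Mlycd lie right of it.

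The first question of the design, what CR does in wildtype muscle, gave 0 of the 29 genes at an adjusted p under 0.05 in limma, where 0.124% of all genes were called. At an unadjusted p under 0.05 there were 2, Cpt2 and Hadha, both lower (6.9% of members), where 13.1% of all genes passed. CR and control arrays did not overlap for 3 members, all lower (Cpt2, Hadha and Slc22a5), where 2.95% of all genes were lower without overlap. No member was higher without overlap, where 9.55% of all genes were. Of the 29 genes 20 lay below 0 (69.0%), against 37.7% of all genes, and the median was -0.11 against 0.04. The members vary together over arrays, so they are not 29 independent observations. The count and median rested on single arrays: the median was 0.01 without wildtype control replicate 1, which also had the highest slow fibre markers of the wildtype controls (0.79), and -0.20 without wildtype control replicate 3. The highest slow fibre markers of all arrays were on wildtype CR replicate 3 (1.06), where the mean of the 29 genes was -0.10. Wildtype control replicate 1 also had liver markers at 1.51. The parts of fibre type and of liver signal were not tested.

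In Sirt3 knockout muscle CR gave 0 of the 29 genes at an adjusted p under 0.05 in limma, where 0.0664% of all genes were called. At an unadjusted p under 0.05 there were 4, Cpt2 and Slc22a5 lower and Slc27a1 and Mlycd higher, where 12% of all genes passed. No member was without overlap between the diets, where 3.91% of all genes were higher and 3.08% lower in that sense. Of the 29 genes 16 lay below 0, against 47% of all genes. The median of the members was -0.01 against 0.01 for all genes. It was -0.13 without knockout control replicate 1 and 0.07 without knockout control replicate 3, so single arrays moved it to either side of 0.

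Averaged over the genotypes, 0 of the 29 genes passed in limma, where 1.07% of all genes did, and 5 had an unadjusted p under 0.05 (Cpt2, Hadhb, Hadha, Slc22a5 and Fabp3, all lower), where 20.1% of all genes did. That share of members, 17.2%, lies near the background. The median was -0.05 against 0.03 for all genes, and 18 of 29 lay below 0, against 40.5% of all genes.

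The same counts without the germ cell arrays, both of which are controls, were larger. In wildtype mice 10 of the 29 genes then had an unadjusted limma p under 0.05, where 10.2% of all genes did, and the median was -0.20. In knockout mice there were 9, where 13.2% of all genes passed, and the median was -0.13. Averaged over genotypes there were 14, where 15.1% of all genes passed, and the median was -0.18. Below the control level lay 24 of the 29 genes in wildtype mice, 23 in knockout mice and 25 in the average. Of all genes 44.7%, 49.3% and 45.4% did. All 13 beta-oxidation genes then lay below the control level in knockout mice and in the average, and 10 of 13 did in wildtype mice. The members vary together over arrays, so these counts are not of independent observations. At an adjusted p under 0.05, Cpt2 and Hadhb passed in the average and no member did within a genotype. Without the 4 arrays that carry another tissue the medians were -0.27, -0.13 and -0.21. That fit leaves 1 wildtype control array, replicate 1, assumed to vary like the others. This array had liver markers at 1.51 and lay above its group mean for all 29 genes, so the wildtype value rests on it. The knockout value is that without the germ cell arrays, as the further arrays left out are wildtype.

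Knockout and wildtype mice were compared next. On the control diet 0 of the 29 genes passed in limma, as did 0% of all genes, and no member reached an unadjusted p under 0.05, where 7.03% of all genes did. None was without overlap, where 3.71% of all genes were higher and 1.29% lower in knockout mice. The lowest p were those of Acad9 (0.15, SE 0.10), Acot2 (-0.46, SE 0.33), Mlycd (-0.26, SE 0.19) and Echs1 (0.24, SE 0.19), with limma adjusted p of 0.806 to 0.833. Single arrays moved these values: Acad9 stood at 0.06 without knockout control replicate 3, Echs1 at 0.06 without wildtype control replicate 3, and Acot2 and Mlycd at -0.10 each without knockout control replicate 1. All 4 uptake genes lay below the wildtype level there, and 11 of the 13 beta-oxidation genes above it. Of all genes 57.6% lay above it, as did 22 of 24 genes of the TCA cycle and respiratory chain. The median of the members was 0.01, and it moved from -0.09 without knockout control replicate 3 to 0.15 without knockout control replicate 1. Without both germ cell arrays 3 of the 4 uptake genes lay below and all 13 beta-oxidation genes above the wildtype level, with a member median of 0.03. Of all genes 47.4% then lay below that level. Without the 4 arrays that carry another tissue 6 of the 13 beta-oxidation genes lay below the wildtype level, as did 20 of the 29 members, and the median was -0.08.

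On CR 0 of the 29 genes passed in limma, where 0.0166% of all genes did, and no member reached an unadjusted p under 0.05, where 5.92% of all genes did. None was without overlap, where 1.84% of all genes were higher and 2.76% lower. The differences were small and mostly of one sign: 26 of 29 lay above 0, against 46.7% of all genes, with a median of 0.11. Among 24 genes of the TCA cycle and respiratory chain 20 lay above 0. Slc27a1 stood at 0.34 (SE 0.21), Acadl at 0.21 (SE 0.16), Hadh at 0.15 (SE 0.10) and Acads at 0.15 (SE 0.11), each with a limma adjusted p of 0.870 or more. Per array the mean of the 29 genes was -0.17 to 0.07 in wildtype CR and -0.04 to 0.11 in knockout CR mice, so the groups overlapped. This comparison holds neither germ cell array, and the array with liver markers is among its wildtype samples: without it the median was 0.07.

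Averaged over the diets, 0 of the 29 genes passed in limma, as did 0% of all genes, and none had an unadjusted p under 0.05, where 7.18% of all genes did. All 13 beta-oxidation genes lay above 0, between 0.07 and 0.17, where 53.2% of all genes lay above 0. So did 22 of 24 genes of the TCA cycle and respiratory chain, so this direction was not particular to beta-oxidation. The median of all 29 was 0.08, and 0.02 without wildtype control replicate 3. Without the germ cell arrays all 13 still lay above 0, with a member median of 0.09. Without the 4 arrays that carry another tissue 3 of the 13 lay below 0, as did 17 of the 29 members, with a median of -0.00. Acads had the lowest p (0.13, SE 0.08, limma adjusted p = 0.749). In the interaction, the difference of the CR responses, 0 of 29 passed in limma, as did 0% of all genes, and none had an unadjusted p under 0.05, where 5.71% of all genes did. Of the 29 genes 22 lay above 0, against 43.1% of all genes. The median was 0.12, against -0.03 for all genes, and it was -0.01 without wildtype control replicate 1. Leaving out the germ cell arrays gave 0.08, and leaving out all 4 arrays with another tissue gave 0.17. These comparisons share arrays with those above, so their counts are not independent of each other.

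Uptake was then set against beta-oxidation within each array, as the mean of the 4 measured uptake genes minus the mean of the 13 beta-oxidation genes, each gene relative to its own mean over all arrays. The result was 0.20, -0.03 and 0.12 on wildtype control arrays, a mean of 0.09 ± 0.12 (SD, n = 3). It was 0.02, -0.01, -0.03 and -0.20 on wildtype CR arrays, a mean of -0.05 ± 0.10 (SD, n = 4). In wildtype mice the lower values thus lay on CR, with overlap.

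In knockout mice the order was the other way. The value was -0.22, -0.13, -0.18 and 0.15 on knockout control arrays, a mean of -0.09 ± 0.16 (SD, n = 4), and 0.04, 0.20, 0.01 and 0.06 on knockout CR arrays, a mean of 0.08 ± 0.08 (SD, n = 4). Here 3 of 4 control arrays lay below all CR arrays and replicate 4 lay inside their range. The CR difference was -0.15 in wildtype and 0.17 in knockout mice, and the difference between them was 0.32, against an SD of 0.12 between arrays within groups. It lay between 0.27 and 0.40 when any 1 array was left out. These are values of a group of members and were given no test. When the carnitine shuttle was added to uptake and electron transfer to beta-oxidation, the knockout difference was 0.036 and the difference between genotypes 0.20. Of the 4 uptake genes, Slc27a1 had the largest part in the knockout value, and adipocyte markers moved with it as given above. Their part was not tested.

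**Figure D4:**
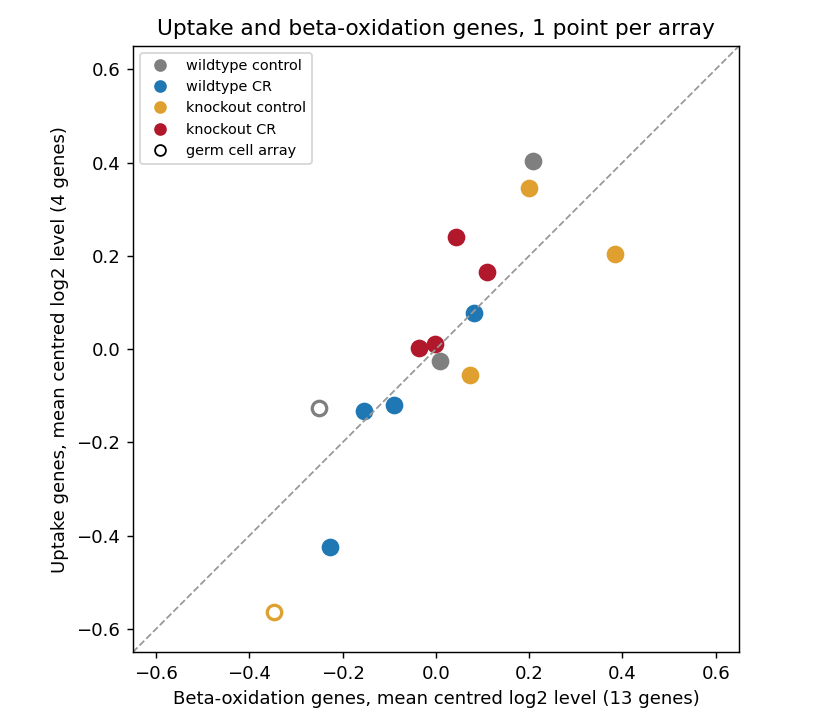
Each point is 1 array, with the mean of the 13 beta-oxidation genes on the x axis and of the 4 uptake genes on the y axis, both as log2 levels relative to each gene's mean over 15 arrays, and the dashed line marks equal values. Arrays spread along the line, the 4 knockout CR arrays lie on or above it by 0.01 to 0.20, and 3 of the 4 knockout control arrays lie below it.

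Other genes of the pathway came from lists of 36 further oxidation genes, 23 genes of lipid delivery and droplets and 28 regulators, Sirt3 included. In limma 0 of them passed an adjusted p of 0.05 in any comparison. For CR in wildtype mice, 3 of the 31 oxidation genes tested, 3 of 23 delivery genes and 2 of 26 regulators had an unadjusted limma p under 0.05. These shares, 9.68%, 13% and 7.69%, were not above the 13.1% of all genes that did. Abcd2, a peroxisomal importer of very long chains, had the lowest p there at 0.45 (SE 0.12, limma adjusted p = 0.171). Its level was 8.22 ± 0.17 (SD, n = 3) on control and 8.67 ± 0.14 (SD, n = 4) on CR arrays. Crot, the peroxisomal carnitine octanoyltransferase, differed by 0.33 (SE 0.11, limma adjusted p = 0.259) with CR in knockout mice. Both stood above 0 for CR averaged over genotypes, at 0.29 (SE 0.08) and 0.26 (SE 0.08), with limma adjusted p of 0.105 and 0.111. Vldlr, the very low density lipoprotein receptor, stood at -0.26 (SE 0.10, limma adjusted p = 0.163) in that average.

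G0s2, the inhibitor of the triglyceride lipase Pnpla2, had the lowest interaction p of these lists. It was at 6.43 ± 0.21 (SD, n = 3) in wildtype control and 6.10 ± 0.07 (SD, n = 4) in wildtype CR mice, and at 6.16 ± 0.09 and 6.30 ± 0.14 (SD, n = 4 each) in knockout mice. The interaction was 0.46 (SE 0.14, limma adjusted p = 0.812). The fat-cell genes Lipe, Fabp4 and Pparg stood at 0.47 (SE 0.19), 0.52 (SE 0.23) and 0.37 (SE 0.17) with CR in knockout mice, with limma adjusted p of 0.351 to 0.408. Fabp4 and Pparg are also in the adipocyte list. For comparison, 24 genes of the TCA cycle and respiratory chain had a median CR difference of -0.00 in wildtype and -0.01 in knockout mice, and 0.08 for knockout against wildtype averaged over the diets.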

How the data were processed

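Log2 intensities of 35556 probe sets on 15 Affymetrix arrays, which the authors processed with RMA per the submitters' processing notes, were used as deposited; no label gives RMA's version, slides or scan days, so batches could not be tested. The platform annotation named the probe sets (21789 with 1 symbol, 1621 with several, the latter left out). Genes were kept at a mean of 5.32 or more (40th percentile of listed probe sets).

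All 15 arrays were fitted with limma 3.58.1 (R 4.3.3; lmFit, eBayes, 1 mean per group, two-sided, Benjamini-Hochberg over 12056 genes, threshold 0.05), and the fit was tested on simulated data. SE is the moderated standard error, SD the spread between arrays. With 3 or 4 arrays a group, the number of arrays limits precision. Full statistics were given for members past the threshold and the 4 lowest p per comparison, and for the 2 lowest p of each other pathway list, of which the text names some; values of other members are descriptions. The members, gene lists, marker lists and alternatives were chosen with earlier results of these data known.

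Alternatives were no filter, the 60th percentile, the mean of probe sets, quantile normalization, median centring, array weights, a trended robust prior, a fit of only the groups compared, the replicate number as a block, wider gene classes, and leaving out each array, the 2 germ cell arrays or the 4 arrays that carry another tissue. Promoter windows came from RefSeq (GRCm38.p6). Plots were made with matplotlib 3.10.9 (Python 3.11.15).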

Additional observations from a re-analysis of the deposited data

Results flagged for a closer look

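In groups of 4 arrays, a value is given here when it stands far from the other 3 (gap over range above Dixon's 95% critical value). Chance gives about 1 such group in 20, and 93 groups of values were examined, with 3 found, fewer than that rate gives. Lpl was 9.96 on wildtype CR replicate 4, the array with liver markers, against 10.56 to 10.66 on the other 3. Slc22a5 was 6.64 on knockout control replicate 3, where the other 3 lay between 6.26 and 6.29. Acot2 was 9.42 on knockout CR replicate 1, with the other 3 between 9.76 and 9.80.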

How the results depend on the processing

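Over all results and settings, 1226 values kept their direction and side of the threshold or moved by less than the spread between arrays. Another 6, counts of members called or uptake minus beta-oxidation, moved, and 6 log2 changes newly passed the threshold. Many of the 1226 could not move: leaving out an array outside the groups compared leaves a log2 change as it was. Medians that turned sign by less than that spread are among the 1226. No log2 change reversed among the genes followed through every setting, those with the lowest p of each comparison. Other members did turn sign. Without the germ cell arrays 4 of 29 turned for CR in wildtype (among them Mlycd, 0.09 to -0.07), 7 for CR in knockout (among them Acot2, 0.35 to -0.02), 7 for CR averaged over genotypes and 5 for genotype on the control diet. Without the 4 arrays that carry another tissue 7 turned for CR in wildtype (among them Ehhadh, 0.27 to -0.11, and Acacb, 0.12 to -0.10), 9 for CR averaged over genotypes, 6 for genotype on the control diet and 11 for genotype averaged over diets. Medians of the members near 0 did turn sign when 1 array was left out, over -0.20 to 0.01 for CR in wildtype, -0.13 to 0.07 for CR in knockout, -0.09 to 0.15 for genotype on the control diet and -0.01 to 0.19 for the interaction. The count of members called for CR averaged over genotypes, 0 with all arrays, was 1 with the 60th percentile (Cpt2), 2 with array weights and 2 without the germ cell arrays (Cpt2 and Hadhb), and 0 to 1 when 1 array was left out. The construction of the 60th percentile filter tests fewer genes; the cause of the other moves was not tested. With wider classes, uptake minus beta-oxidation was 0.036 for CR in knockout mice and 0.20 for the interaction. Deviations from the group means correlated at -0.636 to 0.503 (median 0.01) in 21 pairs of arrays with the same replicate number. In 63 pairs with different numbers they correlated at -0.494 to 0.759 (median -0.01). Same-numbered arrays were thus not more alike than others by this measure. With the replicate block, 0 members were called, the member median for CR in wildtype mice was -0.13 and Cpt2 averaged over genotypes stood at -0.37. No slide or scan batch could be examined. Comparisons with wildtype control mice rest on 3 arrays, of which replicate 2 carries pancreatic and replicate 3 germ cell transcripts. Replicate 1 had liver markers at 1.51.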
